A study of Mus musculus with 6 samples.

Results

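This report covers 39 mouse genes of DNA replication and S phase, the part of the cell cycle in which the genome is copied, as measured in single lung epithelial cells. The members are a named list of genes whose products unwind, copy, supply or repackage DNA. All 39 were matched by symbol, each to 1 identifier, among the 52636 genes of the deposited matrix. The cells are alveolar type II (ATII) cells, the surfactant-making cells of the lung alveolus, and alveolarspheres, the small hollow cultures that ATII cells form in a gel.

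The labels list 3 expression libraries of wild-type cells (IL4Ra WT): ATII cells sorted fresh from young and old mice (day 0), cells of both ages on day 13 of culture, and cells of young mice on day 13. The culture used no serum and no feeder cells. The cytokine was added at 10 ng/ml on day 3 to some wells and PBS to control wells, and cells were collected on day 13. The title names interleukin 4, while the design text names another interleukin. The treatment label of each library reads only that the sample is mixed, so a library can pool treated and untreated or young and old cells. The multiplexing tags that mark them are not used here. The number of mice and their ages in weeks are not given in the sources used here.

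All cells lie in 1 matrix of unique molecular identifier (UMI) counts, in which each UMI stands for 1 captured transcript. The mark before each cell barcode separates 3 libraries but matches no label, so they are called libraries 1, 2 and 3 in file order, and the day, age and treatment of each are unknown. After filtering, 16367, 5593 and 14580 cells remained in libraries 1, 2 and 3, with 63658436, 48676834 and 53329664 UMIs and medians of 3749, 8349 and 3341 UMIs per cell. All 10 ATII markers on a fixed list reached 20 UMIs per 1000000 UMIs of the library (CPM) in each library, with summed levels of 335724, 157720 and 136850 CPM. Fibroblast markers summed to 0.113 CPM or less. Library 1 also held Scgb1a1, a club cell secretory gene, at 2503 CPM and Pecam1, an endothelial adhesion gene, at 88.7 CPM. All 4 endothelial markers on the list summed to 88.8 CPM there, so nearly all of that sum was Pecam1, and 1 marker was at 0. The part of Scgb1a1 and Pecam1 in the differences between libraries was not tested. Of 36431 barcode sequences, 109 occurred in 2 libraries. There is 1 library per group and cells are not replicates, so no test between conditions was possible and no p-value is given. The intervals in brackets after a value hold its 95% exact limits and reflect only the number of UMIs or cells counted.

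Replication starts when the origin recognition complex (Orc), Cdc6 and Cdt1 load the ring-shaped MCM helicase onto DNA in G1 phase. Cyclin E with its kinase then helps to start S phase, Cdc45 and the GINS complex switch the helicase on, polymerases copy both strands on the sliding clamp PCNA, and ribonucleotide reductase, thymidylate synthase and thymidine kinase supply the building blocks. Many of these genes are transcribed from late G1 into S phase under control of the E2F transcription factors. In the adult lung, ATII cells divide rarely and serve as progenitors that proliferate after injury.

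Because E2F control of this gene family is textbook knowledge, the DNA just before the genes was searched for 4 forms of the E2F site, TTTCCCGC, TTTGGCGC, TTTCGCGC and TTTGCCGC, on both strands. RefSeq promoter windows of the build GRCm38.p6, from 250 bases before to 50 bases after a start, were matched by symbol for 33 of the 39 members. Mcm4, Pole, Gins1, Gins2, Rfc2 and Ccne2 had no window. One of the 4 forms lay in a window of 14 of the 33 members (42.4%), against 2.6% of 27025 genes and 3.29% of 17492 coding genes in the same windows. The CCAAT box, another common promoter element, was in a window of 20 of the 33 members (60.6%) against 41.1% of genes. The cell-cycle element TTTGAA was in 4 of the 33 (12.1%) against 20.2% of genes. The 250 bases before the start are shown for Mcm6 and Mcm5, which had the most matches in that stretch, and for Tyms and Slbp, members with none in the whole window. All are in the direction of transcription, 5′ to 3′, and capitals mark matches to the 4 E2F forms.
Mcm6: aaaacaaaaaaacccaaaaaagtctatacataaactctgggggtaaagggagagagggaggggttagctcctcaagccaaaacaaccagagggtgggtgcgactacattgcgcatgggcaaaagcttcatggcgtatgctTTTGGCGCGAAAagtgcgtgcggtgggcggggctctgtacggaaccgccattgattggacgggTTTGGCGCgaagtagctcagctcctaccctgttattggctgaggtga
Mcm5: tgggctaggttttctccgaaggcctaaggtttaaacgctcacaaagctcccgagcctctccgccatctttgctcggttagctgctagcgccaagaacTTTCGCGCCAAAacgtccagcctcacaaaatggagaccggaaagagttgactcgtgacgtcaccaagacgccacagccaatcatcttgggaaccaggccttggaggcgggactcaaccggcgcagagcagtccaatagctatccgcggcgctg
Tyms: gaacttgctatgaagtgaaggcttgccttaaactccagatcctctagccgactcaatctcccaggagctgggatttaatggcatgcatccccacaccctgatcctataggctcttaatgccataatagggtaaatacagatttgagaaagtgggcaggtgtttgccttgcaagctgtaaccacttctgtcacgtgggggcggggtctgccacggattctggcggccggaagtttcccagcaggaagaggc
Slbp: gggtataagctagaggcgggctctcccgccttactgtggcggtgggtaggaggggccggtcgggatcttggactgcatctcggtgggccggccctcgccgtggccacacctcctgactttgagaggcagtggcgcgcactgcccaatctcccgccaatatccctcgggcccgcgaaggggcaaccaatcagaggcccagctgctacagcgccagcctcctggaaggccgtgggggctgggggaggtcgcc
These stretches lie at chr1:128359706-128359955, minus strand (Mcm6), chr8:75109259-75109508, plus strand (Mcm5), chr5:30073626-30073875, minus strand (Tyms) and chr5:33652575-33652824, minus strand (Slbp). In Mcm6, 2 matches on opposite strands overlap, with first bases 110 and 106 bases before the start, and another begins 47 bases before it. In Mcm5, 2 overlapping matches on opposite strands begin 153 and 149 bases before the start. Coordinates are on GRCm38. A match describes the letters only and is not a measured binding site.

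The 39 genes together took 279 (275 to 283), 505 (499 to 511) and 680.5 (673 to 688) CPM of the UMIs in libraries 1, 2 and 3. In 30 members the 95% intervals of both libraries 2 and 3 lay above that of library 1, in 5 members both lay below it, and in Mcm2, Mcm4, Pole and Ccne1 neither held. Over 14217 genes with at least 1 CPM in some library, the first pattern held for 31.5% and the second for 46.8%. The interval of library 3 lay above that of library 2 in 30 members and below it in 0, against 24.8% and 22.9% of the 14217 genes. These are levels side by side, since what sets the libraries apart is unknown. Surfactant genes took a larger share of UMIs in library 1 than in the others, and over UMIs without the 4 surfactant protein genes and Retnla the member sums were 394, 600.4 and 803 CPM.

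**Figure D1:**
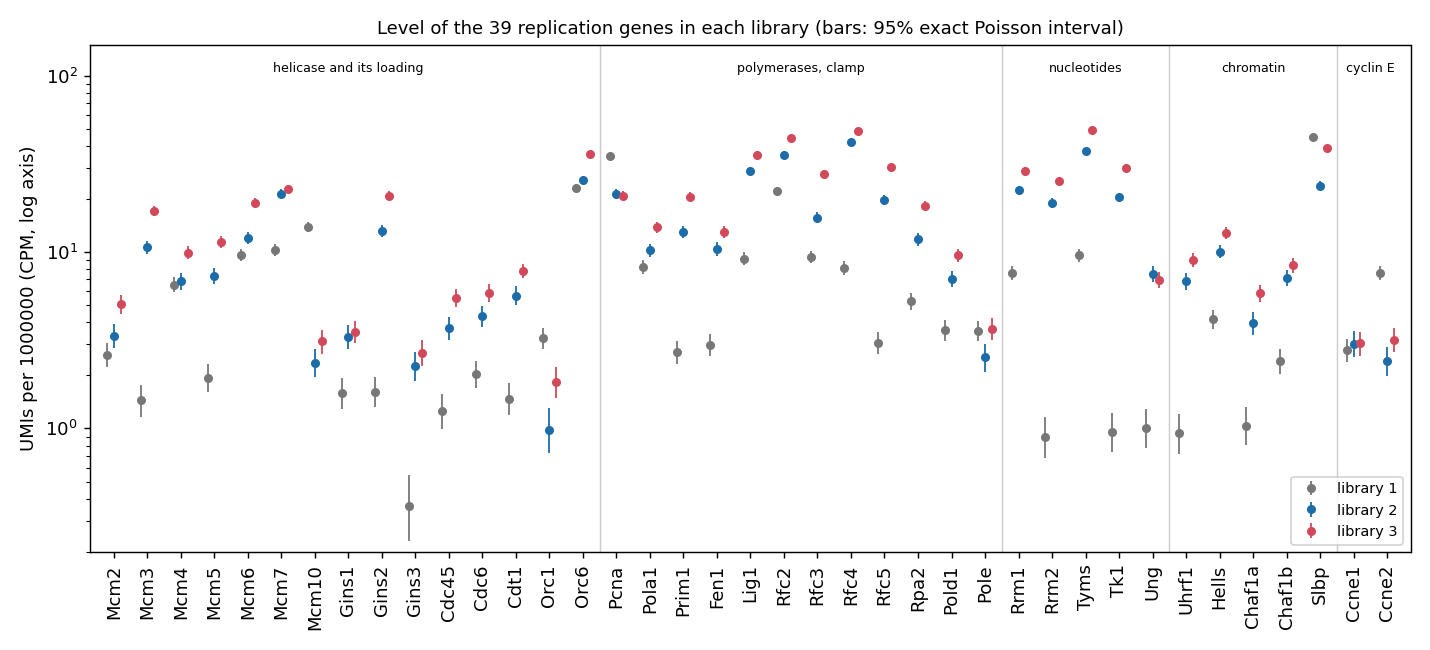
Level of each of the 39 genes in libraries 1, 2 and 3, in UMIs per 1000000 UMIs (CPM, log axis), ordered by role, with 95% exact Poisson intervals as bars. Libraries 2 and 3 lie above library 1 in 30 genes, while Mcm10, Pcna, Orc1, Slbp and Ccne2 are highest in library 1.

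The helicase and its loading factors, 15 members, summed to 81 (78.8 to 83.2), 123 (120.0 to 126) and 172 (169 to 176) CPM in libraries 1, 2 and 3. Mcm3, a subunit of the helicase ring (ENSMUSG00000041859, chromosome 1, 20802968 to 20820312, GRCm38), was at 1.45 (1.17 to 1.77), 10.6 (9.74 to 11.6) and 17.2 (16.1 to 18.3) CPM. Mcm5, another subunit of the ring, was at 1.93 (1.61 to 2.31), 7.31 (6.57 to 8.11) and 11.5 (10.6 to 12.4) CPM. Mcm7 was at 10.3 (9.55 to 11.1), 21.4 (20.1 to 22.8) and 22.7 (21.5 to 24.1) CPM. In each of these subunits, library 1 lay lowest and apart from the others. Mcm6 was at 9.63 (8.88 to 10.4), 12 (11.1 to 13.1) and 18.9 (17.8 to 20.1) CPM, with a smaller distance between libraries. Mcm2 was at 2.61 (2.23 to 3.04), 3.35 (2.85 to 3.9) and 5.06 (4.48 to 5.7) CPM and did not separate libraries 1 and 2. Mcm4 was at 6.53 (5.92 to 7.19), 6.82 (6.11 to 7.6) and 9.92 (9.09 to 10.8) CPM, also level in libraries 1 and 2. Mcm10, which helps to activate the loaded helicase, ran the other way. It was at 13.8 (12.9 to 14.8), 2.36 (1.95 to 2.84) and 3.11 (2.66 to 3.62) CPM, highest in library 1. Orc1, the largest subunit of the origin recognition complex, was at 3.24 (2.81 to 3.71), 0.986 (0.727 to 1.31) and 1.84 (1.49 to 2.24) CPM, also highest in library 1. Its gene overlaps Gm12743 on the opposite strand, which was at 4.13, 0.288 and 0.938 CPM in the same order, and whether counting used strand is not given in the sources used here.

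Orc6, the smallest subunit of the same complex, was at 23.1 (21.9 to 24.3), 25.7 (24.3 to 27.2) and 35.9 (34.3 to 37.5) CPM. Cdc6, the loading ATPase (ENSMUSG00000017499, chromosome 11, 98907801 to 98923940), was at 2.04 (1.71 to 2.42), 4.31 (3.75 to 4.94) and 5.87 (5.24 to 6.56) CPM. Cdt1, its partner in loading, was at 1.48 (1.19 to 1.81), 5.67 (5.02 to 6.38) and 7.82 (7.09 to 8.61) CPM. These 3 were higher in library 3 than in library 1, the opposite order from Orc1. Cdc45, which joins the helicase at the fork, was at 1.26 (0.996 to 1.56), 3.7 (3.18 to 4.28) and 5.48 (4.87 to 6.14) CPM. Gins1 was at 1.59 (1.29 to 1.93), 3.31 (2.82 to 3.86) and 3.54 (3.06 to 4.09) CPM. Gins2, another GINS subunit, was at 1.62 (1.32 to 1.96), 13.3 (12.2 to 14.3) and 20.9 (19.7 to 22.1) CPM. Gins3 was the member with the fewest UMIs in library 1, 23 in all. It was at 0.361 (0.229 to 0.542), 2.26 (1.86 to 2.72) and 2.68 (2.26 to 3.16) CPM. Cdt1 and Gins2 both overlap Gm20388, a long gene model at 103, 71.2 and 69.8 CPM that runs on the same strand as Cdt1, so their counts depend on how shared reads were assigned.

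The polymerases, clamp and clamp loader, 12 members, summed to 114 (111 to 116), 218 (214 to 222) and 287 (282 to 291) CPM. Pcna, the sliding clamp, stood at 35.2 (33.8 to 36.7), 21.3 (20 to 22.7) and 20.9 (19.7 to 22.1) CPM, highest in library 1 and level in libraries 2 and 3. Pola1, the catalytic subunit of the primer-making polymerase, was at 8.25 (7.56 to 8.98), 10.2 (9.33 to 11.1) and 13.8 (12.8 to 14.9) CPM. Prim1, the primase that it works with, was at 2.7 (2.31 to 3.14), 13.1 (12.1 to 14.1) and 20.6 (19.4 to 21.9) CPM. Pold1, the catalytic subunit of lagging-strand polymerase delta, was at 3.6 (3.15 to 4.09), 7.05 (6.32 to 7.83) and 9.56 (8.75 to 10.4) CPM. All 3 of these were lowest in library 1. Pole, the catalytic subunit of leading-strand polymerase epsilon, was at 3.57 (3.12 to 4.06), 2.53 (2.1 to 3.01) and 3.66 (3.16 to 4.21) CPM, with intervals that overlapped in libraries 1 and 3. Fen1, the flap nuclease that trims Okazaki fragments, was at 2.98 (2.58 to 3.44), 10.4 (9.53 to 11.4) and 13 (12 to 14) CPM. Lig1, the ligase that seals them, was at 9.19 (8.46 to 9.97), 28.9 (27.4 to 30.4) and 35.6 (34.1 to 37.3) CPM. Both were lowest in library 1, beyond their intervals. The clamp loader members Rfc2, Rfc3, Rfc4 and Rfc5 shared the direction. Rfc2 was at 22.3 (21.1 to 23.5), 35.5 (33.8 to 37.2) and 44.4 (42.6 to 46.2) CPM. Rfc3 was at 9.36 (8.63 to 10.1), 15.6 (14.5 to 16.8) and 27.8 (26.4 to 29.2) CPM. Both were lowest in library 1. Rfc4 was at 8.12 (7.44 to 8.85), 41.8 (40 to 43.7) and 48.4 (46.6 to 50.3) CPM. Rfc5 was at 3.05 (2.63 to 3.51), 19.8 (18.6 to 21.1) and 30.5 (29 to 32) CPM. Rpa2, a subunit of the complex that coats single-stranded DNA, was at 5.25 (4.7 to 5.84), 11.8 (10.8 to 12.8) and 18.3 (17.2 to 19.5) CPM.

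Nucleotide supply and uracil removal, 5 members, summed to 20 (19 to 21.2), 107 (104 to 109) and 140.5 (137 to 144) CPM. Rrm2, the small subunit of ribonucleotide reductase (ENSMUSG00000020649, chromosome 12, 24708241 to 24714146, GRCm38), was at 0.895 (0.678 to 1.16), 19.1 (17.9 to 20.4) and 25.4 (24.1 to 26.8) CPM. Tk1, the cytosolic thymidine kinase (ENSMUSG00000025574, chromosome 11, 117815526 to 117826092), was at 0.958 (0.733 to 1.23), 20.4 (19.2 to 21.7) and 30.1 (28.6 to 31.6) CPM. Both were under 1 CPM in library 1 and at 19 CPM or more in the others. Rrm1, the large reductase subunit, was at 7.6 (6.94 to 8.31), 22.4 (21.1 to 23.7) and 28.7 (27.3 to 30.2) CPM, so it was already present in library 1. Tyms, thymidylate synthase, was at 9.58 (8.84 to 10.4), 37.2 (35.5 to 38.9) and 49.3 (47.4 to 51.2) CPM. Ung, the glycosylase that takes uracil out of DNA (ENSMUSG00000029591, chromosome 5, 114130386 to 114139323), was at 1.01 (0.774 to 1.28), 7.5 (6.75 to 8.31) and 6.96 (6.27 to 7.7) CPM and did not separate libraries 2 and 3.

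The chromatin and histone members summed to 53.6 (51.9 to 55.5), 51.7 (49.7 to 53.8) and 74.8 (72.5 to 77.2) CPM, the role whose sum was closest across libraries 1 and 2. Uhrf1, which brings the maintenance methyltransferase to new DNA, was at 0.943 (0.719 to 1.21), 6.82 (6.11 to 7.6) and 9.02 (8.23 to 9.86) CPM. Hells, a chromatin remodeler, was at 4.16 (3.68 to 4.7), 10.1 (9.19 to 11) and 12.8 (11.9 to 13.8) CPM. Chaf1a, the large subunit of the histone-depositing complex CAF-1, was at 1.04 (0.802 to 1.32), 3.94 (3.41 to 4.54) and 5.83 (5.2 to 6.52) CPM. Those 3 were lowest in library 1. Chaf1b, the middle subunit of CAF-1, was at 2.4 (2.04 to 2.82), 7.13 (6.4 to 7.92) and 8.42 (7.66 to 9.24) CPM. Slbp, which binds the stem-loop at the end of histone transcripts, was at 45.1 (43.5 to 46.8), 23.7 (22.4 to 25.2) and 38.7 (37.1 to 40.4) CPM, highest in library 1. The cyclin E genes were the lowest role in sum, at 10.4 (9.61 to 11.2), 5.42 (4.79 to 6.12) and 6.23 (5.57 to 6.93) CPM. Ccne1 was at 2.78 (2.39 to 3.22), 3.02 (2.55 to 3.55) and 3.04 (2.59 to 3.54) CPM, with overlapping intervals in all 3 libraries. Ccne2 (ENSMUSG00000028212, chromosome 4, 11191351 to 11204779) was at 7.6 (6.94 to 8.31), 2.4 (1.99 to 2.88) and 3.19 (2.73 to 3.7) CPM, highest in library 1. Ccne2 overlaps Ints8 on the opposite strand, at 16.6, 8.69 and 9.26 CPM.

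How the transcripts were spread over cells was asked after every cell was thinned to 2000 UMIs, which left out 288, 29 and 1289 shallower cells in libraries 1, 2 and 3. Cells with no member UMI made up 58.4%, 58.1% and 50.1% of the rest. Cells with 5 or more member UMIs made up 0.162% (0.106 to 0.237) of 16079 cells in library 1, 4.51% (3.98 to 5.09) of 5564 in library 2 and 6.16% (5.76 to 6.58) of 13291 in library 3. The highest sums in a single thinned cell were 15, 17 and 16 UMIs, and at most 14, 13 and 14 of the 39 genes were seen in 1 cell. Libraries 1 and 2 were alike in the share of cells without any member and unlike in this upper tail. Of the cells with 5 or more member UMIs, 6 of 26 in library 1 (23.1%, 8.97 to 43.6), 58 of 251 in library 2 (23.1%, 18.0 to 28.8) and 185 of 819 in library 3 (22.6%, 19.8 to 25.6) held a UMI of the mitosis genes Plk1, Ccnb1 or Ccnb2. Among all thinned cells the shares were 0.46%, 9.54% and 12.5%. Those cells are a range of a sum and not a cell type.

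**Figure D2:**
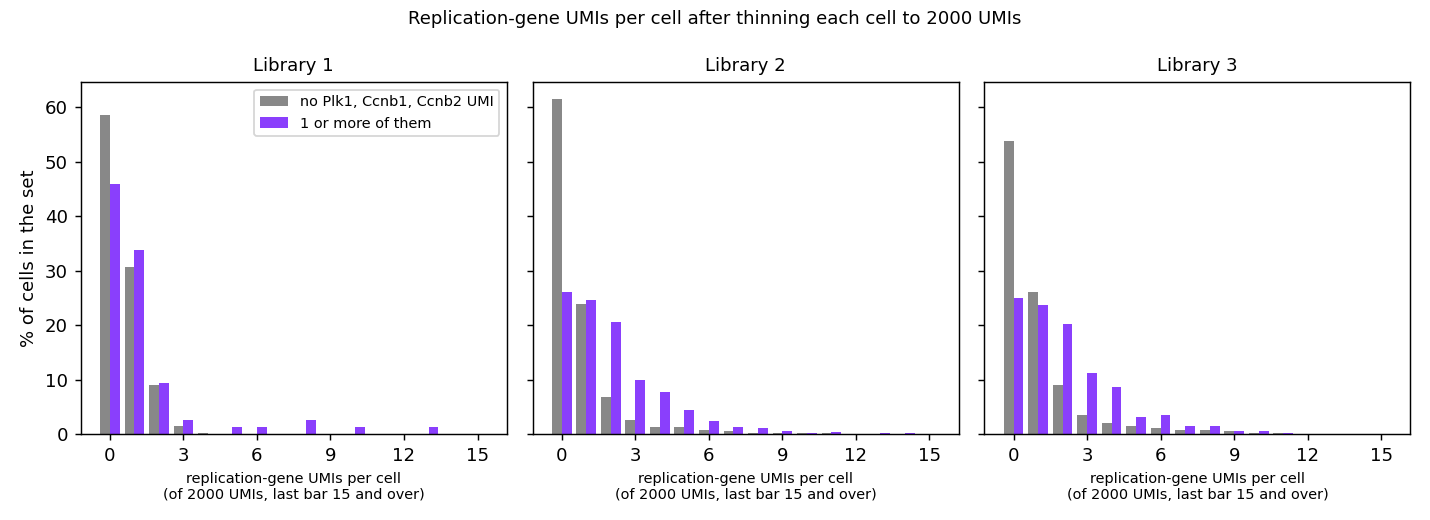
Distribution of the summed UMIs of the 39 genes per cell after each cell was thinned to 2000 UMIs, as a percent of cells with (purple) and without (grey) a UMI of Plk1, Ccnb1 or Ccnb2 in libraries 1, 2 and 3. In library 1 the purple bars rest on 74 cells, and in libraries 2 and 3 on 531 and 1655, where 26.2% and 25% of them hold no member UMI against 61.5% and 53.7% of the other cells.

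Whether members were seen in the same cells was described in the thinned cells by the mean UMIs of the other 38 members in cells with and without a UMI of a given member. In library 3 this ratio ran from 2.06 (1.96 to 2.17) for Slbp to 4.2 (3.86 to 4.57) for Cdc6. In library 2 the highest was 5.55 (5 to 6.14), for Mcm3. Library 1 held members of both kinds. A UMI of Tk1 went with 4.59 (3.61 to 5.75) times the other members' UMIs there, one of Uhrf1 with 4.41 (3.45 to 5.55) times and one of Mcm3 with 4.1 (3.32 to 5.01) times. By contrast, the ratio in library 1 was 0.98 (0.851 to 1.12) for Mcm10, 0.998 (0.895 to 1.11) for Rfc2, 1.06 (0.983 to 1.15) for Slbp and 1.16 (1.06 to 1.26) for Pcna. Cells of library 1 with a UMI of Mcm10, Rfc2 or Slbp thus did not separate from cells without one in their other member UMIs. Mcm10 in library 2 had a ratio of 2.95 (2.3 to 3.74) and in library 3 of 3.43 (3.03 to 3.86). Cells of 1 library share its depth and composition, so these ratios are descriptions.

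The first split of cells used Plk1, the mitotic kinase, and Ccnb1 and Ccnb2, the B cyclins, which are expressed in G2 and M phase and are not members. Cells with 1 or more UMIs of the 3 genes are called mitosis-marked, the rest unmarked. There were 167, 1013 and 2569 mitosis-marked cells in libraries 1, 2 and 3. A gene was counted as higher or lower when its levels differed at least 2-fold on log2(CPM + 1) and reached 10 CPM in either class; medians and the highest, lowest, largest or smallest fold are on that scale, while log2 ratios are of the levels themselves. In library 2, 26 of the 39 members were higher in mitosis-marked cells, against 5.91% of 7236 genes at the same floor, and 0 were lower, against 0.553%. In library 3, 17 members were higher, against 5.45% of 7215 genes, and 0 were lower, against 1.12%. The floor was reached by 28 members in each. The median log2 fold of the 39 was 1.32 and 1.02, beside 0.11 and 0.13 over all genes with at least 1 CPM. Mitosis-marked cells were also deeper, with medians of 10291 against 8066.5 UMIs in library 2 and 4918 against 3184 in library 3. With cells thinned to 2000 UMIs before the classes were set, 19 members of library 2 and 12 of library 3 were higher. The shares of all genes were 6.63% and 4.67% there. Mitosis-marked cells held less Malat1, a nuclear RNA, at 4838 against 7075 CPM and 4392 against 5510 CPM, and less Krt19, at 202 against 296 CPM and 205 against 348 CPM. The summed ATI markers were at 738 against 1135 CPM and 966 against 2192 CPM. The part of these in the differences was not tested.

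The nucleotide genes differed most. Their sum was 277 against 58.4 CPM in library 2 and 319 against 85.5 CPM in library 3, log2 ratios of 2.25 (2.17 to 2.33) and 1.9 (1.83 to 1.97). Tk1 had the largest fold of all members in both libraries, 66.6 against 7.37 CPM in library 2 and 80.7 against 14.5 CPM in library 3, with log2 ratios of 3.18 (2.97 to 3.38) and 2.48 (2.33 to 2.62). Rrm2 was at 56.5 against 8.53 CPM in library 2 and 62.3 against 14.1 CPM in library 3, with log2 ratios of 2.73 (2.53 to 2.93) and 2.15 (1.99 to 2.31). Tyms was at 96.1 against 20.6 CPM in library 2 and 112 against 30 CPM in library 3, with log2 ratios of 2.22 (2.09 to 2.36) and 1.9 (1.79 to 2.01). Rrm1 was at 54 against 13.5 CPM in library 2 and 61.2 against 18.7 CPM in library 3, with log2 ratios of 2.0 (1.83 to 2.18) and 1.71 (1.56 to 1.85). All 4 enzymes of nucleotide supply were thus higher in mitosis-marked cells of both libraries. Ung, the repair enzyme grouped with them, was the exception and had the smallest fold of the 39, 3.92 against 8.51 CPM in library 2 and 2.95 against 8.19 CPM in library 3, with log2 ratios of -1.12 (-1.62 to -0.65) and -1.47 (-2.01 to -0.98). It stayed under the floor of 10 CPM in both classes, and only without that floor was it counted as lower, in library 3.

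Among helicase members, Mcm7 was at 54.2 against 12.2 CPM in library 2 and 41 against 17.1 CPM in library 3, with log2 ratios of 2.15 (1.97 to 2.33) and 1.26 (1.09 to 1.43). Gins2 was at 36.6 against 6.66 CPM in library 2 and 46.1 against 13.1 CPM in library 3, with log2 ratios of 2.46 (2.23 to 2.69) and 1.82 (1.64 to 1.99). Cdc45 was at 10.2 against 1.87 CPM in library 2 and 11.3 against 3.68 CPM in library 3, with log2 ratios of 2.45 (2.0 to 2.9) and 1.62 (1.28 to 1.96). These 3 were the only helicase members past the rule in both libraries. Mcm3, Mcm4, Mcm5, Mcm6, Cdt1 and Orc6 were past it in library 2 alone, and a difference between the libraries was not tested. Cdc6 was under the floor in both, at 7.19 against 3.5 CPM in library 2 and 5.58 against 5.96 CPM in library 3, with log2 ratios of 1.04 (0.61 to 1.45) and -0.1 (-0.5 to 0.29). Among the polymerase and clamp members, Prim1 was at 33.4 against 7.32 CPM in library 2 and 40.4 against 14.5 CPM in library 3, with log2 ratios of 2.19 (1.96 to 2.42) and 1.47 (1.3 to 1.65). Rfc5 was at 48 against 11.9 CPM in library 2 and 67.6 against 19.1 CPM in library 3, with log2 ratios of 2.02 (1.83 to 2.2) and 1.82 (1.68 to 1.96). Lig1 was at 64.1 against 19 CPM in library 2 and 66 against 26.3 CPM in library 3, with log2 ratios of 1.76 (1.6 to 1.91) and 1.33 (1.19 to 1.46). Pola1, Fen1, Rfc4 and Pold1 were also higher in both libraries, with log2 ratios between 1.11 and 1.55. Of the chromatin members, Uhrf1 was at 18.3 against 3.58 CPM in library 2 and 16.7 against 6.65 CPM in library 3, with log2 ratios of 2.35 (2.03 to 2.68) and 1.33 (1.07 to 1.6). Chaf1b, past the rule in both, was at 13.6 against 5.29 CPM in library 2 and 14.7 against 6.47 CPM in library 3, with log2 ratios of 1.37 (1.05 to 1.68) and 1.19 (0.91 to 1.46). Slbp was not past it in either, at 35.3 against 20.5 CPM in library 2 and 43.8 against 37.2 CPM in library 3, with log2 ratios of 0.79 (0.6 to 0.96) and 0.24 (0.09 to 0.38). Both cyclin E genes were under the floor, and Ccne2 was at 3.74 against 2.03 CPM in library 2 and 2.07 against 3.53 CPM in library 3, with log2 ratios of 0.88 (0.29 to 1.45) and -0.77 (-1.43 to -0.16). In library 1 the sum of the 39 was 556 against 275 CPM, from 428 UMIs in the 167 mitosis-marked cells.

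The second split used 8 other genes known from S phase, among them Clspn, Atad2, Wdhd1, Dscc1, Tipin, Exo1 and Cdca7, none of them a member. S-marked cells had 2 or more UMIs over these genes and 0 of Plk1, Ccnb1 and Ccnb2, and cells called neither had 0 of all 11. There were 319 S-marked cells in library 2 and 503 in library 3, beside 3437 and 10194 neither cells. In library 1 there were 153 and 14550. Members and markers are known from the same phase, so a shared direction describes the classes. The members summed to 1492 against 214 CPM in library 2, to 2584 against 316 CPM in library 3 and to 612 against 271 CPM in library 1. In library 2, 34 of 39 members were higher in S-marked cells, against 4.05% of 7183 genes, and 0 lower, against 0.292%. In library 3, 37 were higher, against 8.19% of 7313 genes, and 0 lower, against 1.56%. The median log2 fold was 2.73 and 2.98, beside 0.14 over all genes in each. It was 2.61 and 2.97 for a list of 20 mitosis genes described below, so the rise was not particular to the members. S-marked cells were deeper, with medians of 10043 against 7662 UMIs in library 2 and 5037 against 3080.5 in library 3, and a class that asks for UMIs of given genes takes in cells with more UMIs. With cells thinned to 2000 UMIs before the classes were set, which left 70 and 225 S-marked cells, 34 and 39 members were higher, against 20.3% and 12.9% of genes. The level of Krt19 in CPM was lower in S-marked cells, at 227 against 315 CPM and 177 against 367 CPM. So was that of the ATI markers, with sums of 1069 against 1163 CPM and 1181 against 2321 CPM. The part of depth and of these genes in the differences was not tested.

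**Figure D3:**
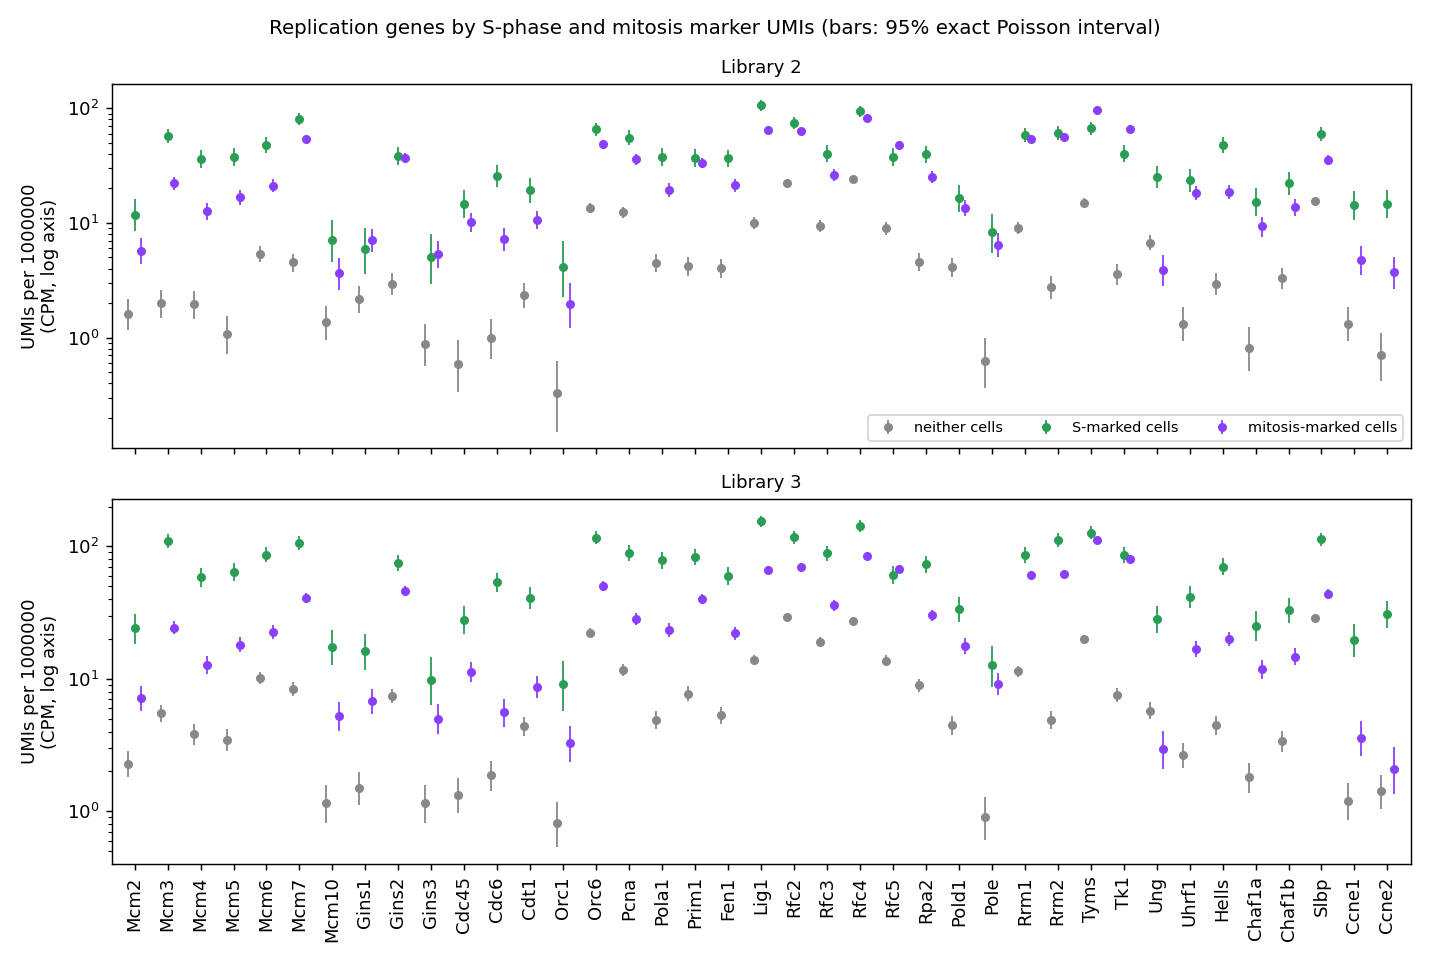
Levels of the 39 genes in neither (grey), S-marked (green) and mitosis-marked (purple) cells of library 2 (top) and library 3 (bottom), in UMIs per 1000000 (CPM, log axis) with 95% exact Poisson intervals. For Mcm3 in library 3 the points lie at 5.52, 110.5 and 24.4 CPM, for Tk1 at 7.6, 86 and 80.7 CPM.

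The helicase group and the cyclin E genes stood farthest apart. Summed helicase members were 11 and 10.8 times higher in S-marked than in neither cells of libraries 2 and 3, and summed cyclin E genes 14.4 and 19.3 times. The other roles were between 5.36 and 8.88 times higher. Mcm3 had the largest log2(CPM + 1) fold in library 2, 57.6 against 1.99 CPM in library 2 and 111 against 5.52 CPM in library 3, with log2 ratios of 4.86 (4.42 to 5.32) and 4.32 (4.05 to 4.6). Mcm5 was at 37.5 against 1.07 CPM in library 2 and 64.3 against 3.47 CPM in library 3, with log2 ratios of 5.14 (4.54 to 5.77) and 4.21 (3.86 to 4.57). Mcm7 was at 80.6 against 4.53 CPM in library 2 and 106 against 8.35 CPM in library 3, with log2 ratios of 4.16 (3.84 to 4.47) and 3.67 (3.42 to 3.92). Each of these subunits differed by a log2 ratio above 3.6 in both libraries. Mcm4 was at 36 against 1.95 CPM in library 2 and 58.8 against 3.83 CPM in library 3, with log2 ratios of 4.21 (3.73 to 4.7) and 3.94 (3.59 to 4.29). Mcm6 was at 48.1 against 5.41 CPM in library 2 and 86.8 against 10.1 CPM in library 3, with log2 ratios of 3.15 (2.82 to 3.49) and 3.1 (2.85 to 3.35). Mcm2 was at 11.8 against 1.62 CPM in library 2 and 24.1 against 2.29 CPM in library 3, with log2 ratios of 2.87 (2.21 to 3.52) and 3.39 (2.88 to 3.9). All 6 subunits of the ring were thus higher. Cdc6, their loader, was at 25.7 against 0.993 CPM in library 2 and 53.7 against 1.87 CPM in library 3, with log2 ratios of 4.69 (4.06 to 5.37) and 4.84 (4.4 to 5.3). Cdc45 was at 14.8 against 0.589 CPM in library 2 and 28 against 1.33 CPM in library 3, with log2 ratios of 4.65 (3.81 to 5.56) and 4.4 (3.84 to 4.98). Cdt1 was at 19.5 against 2.35 CPM in library 2 and 41 against 4.4 CPM in library 3, with log2 ratios of 3.05 (2.53 to 3.57) and 3.22 (2.84 to 3.59). The origin subunit Orc6 differed less, at 65.9 against 13.5 CPM in library 2 and 116 against 22.3 CPM in library 3, with log2 ratios of 2.29 (2.04 to 2.53) and 2.38 (2.18 to 2.58). Gins2 was at 38.4 against 2.94 CPM in library 2 and 75 against 7.42 CPM in library 3, with log2 ratios of 3.71 (3.29 to 4.13) and 3.34 (3.06 to 3.62). Mcm10, Gins1, Gins3 and Orc1 stayed under the floor in library 2, and Gins1 had the smallest fold there, 5.91 against 2.17 CPM. In library 3, Gins3 and Orc1 stayed under it.

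Rrm2 had the largest log2(CPM + 1) fold in library 3, 60.8 against 2.76 CPM in library 2 and 112 against 4.89 CPM in library 3, with log2 ratios of 4.46 (4.07 to 4.86) and 4.51 (4.23 to 4.8). Tk1 was at 40.2 against 3.57 CPM in library 2 and 86 against 7.6 CPM in library 3, with log2 ratios of 3.49 (3.11 to 3.88) and 3.5 (3.23 to 3.77). Rrm1 was at 58.8 against 9.05 CPM in library 2 and 86 against 11.4 CPM in library 3, with log2 ratios of 2.7 (2.42 to 2.97) and 2.92 (2.67 to 3.16). Tyms was at 67 against 14.9 CPM in library 2 and 127 against 19.8 CPM in library 3, with log2 ratios of 2.17 (1.93 to 2.41) and 2.68 (2.48 to 2.87). Ung was also higher here, at 25.4 against 6.73 CPM in library 2 and 28.4 against 5.76 CPM in library 3, with log2 ratios of 1.92 (1.53 to 2.29) and 2.3 (1.89 to 2.7). All 5 members of the group were therefore higher in S-marked than in neither cells. Among the polymerase members, Lig1 was at 106 against 10 CPM in library 2 and 154 against 13.9 CPM in library 3, with log2 ratios of 3.41 (3.17 to 3.64) and 3.47 (3.27 to 3.67). Pola1 was at 37.8 against 4.49 CPM in library 2 and 78.5 against 4.89 CPM in library 3, with log2 ratios of 3.07 (2.71 to 3.44) and 4.01 (3.7 to 4.32). Fen1 was at 36.6 against 4.05 CPM in library 2 and 60 against 5.31 CPM in library 3, with log2 ratios of 3.18 (2.8 to 3.56) and 3.5 (3.18 to 3.82). Prim1, Rpa2, Pold1 and Pcna had log2 ratios between 2.0 and 3.42. The 4 clamp loader genes lay closer to the level of neither cells. Rfc2 was at 74.4 against 22.1 CPM in library 2 and 117 against 29.3 CPM in library 3, with log2 ratios of 1.75 (1.53 to 1.96) and 2.0 (1.8 to 2.19). Rfc3 was at 40.2 against 9.46 CPM in library 2 and 88.4 against 19.1 CPM in library 3, with log2 ratios of 2.09 (1.78 to 2.39) and 2.21 (1.99 to 2.43). Rfc4 and Rfc5 had log2 ratios between 1.98 and 2.37. Of the chromatin members, Uhrf1 was at 23.6 against 1.32 CPM in library 2 and 41.8 against 2.65 CPM in library 3, with log2 ratios of 4.16 (3.57 to 4.77) and 3.98 (3.56 to 4.4). Hells was at 47.8 against 2.94 CPM in library 2 and 70.3 against 4.46 CPM in library 3, with log2 ratios of 4.02 (3.63 to 4.43) and 3.98 (3.65 to 4.3). Chaf1a was at 15.4 against 0.809 CPM in library 2 and 25.3 against 1.81 CPM in library 3, with log2 ratios of 4.25 (3.5 to 5.04) and 3.8 (3.27 to 4.34). Chaf1b had log2 ratios of 2.74 and 3.30. Slbp had the smallest log2(CPM + 1) fold of library 3, 59.7 against 15.4 CPM in library 2 and 113 against 28.8 CPM in library 3, with log2 ratios of 1.95 (1.7 to 2.2) and 1.98 (1.78 to 2.17). Ccne1 was at 14.5 against 1.32 CPM in library 2 and 19.7 against 1.21 CPM in library 3, with log2 ratios of 3.45 (2.8 to 4.11) and 4.03 (3.4 to 4.67). Ccne2 was at 14.8 against 0.699 CPM in library 2 and 30.8 against 1.42 CPM in library 3, with log2 ratios of 4.4 (3.61 to 5.25) and 4.44 (3.9 to 5.0).

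In single cells thinned to 2000 UMIs and classed afterwards, a UMI of Mcm3 was seen in 21.8% (16.6 to 27.7) of 225 S-marked cells of library 3, in 3.75% (2.88 to 4.78) of 1655 mitosis-marked cells and in 1.51% (1.29 to 1.77) of 10381 neither cells. Tk1 was seen in 13.3% (9.18 to 18.5), 13.7% (12.1 to 15.5) and 2.34% (2.06 to 2.65) of the same cells. Ccne2 was seen in 10.2% (6.59 to 14.9), 0.302% (0.0982 to 0.704) and 0.279% (0.187 to 0.401). In library 3, Mcm3 and Ccne2 thus separated the S-marked class from both others, whereas Tk1 had overlapping intervals in the S-marked and mitosis-marked classes. In library 2, with 70 S-marked, 531 mitosis-marked and 4565 neither cells, Mcm3 was seen in 17.1% (9.18 to 28), 2.45% (1.31 to 4.15) and 0.986% (0.72 to 1.32). Tk1 was seen there in 15.7% (8.11 to 26.4), 10.4% (7.9 to 13.3) and 1.18% (0.89 to 1.54), and Ccne2 in 1.43% (0.0362 to 7.7), 0.377% (0.0456 to 1.35) and 0.329% (0.184 to 0.541). Of the 3 genes, Mcm3 alone separated S-marked from mitosis-marked cells of library 2, and the intervals of Ccne2 overlapped in all its classes. The neither cells give the share seen in cells with no marker UMI at this depth.

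S-marked and mitosis-marked cells were then compared with each other, which orders the members between S phase and mitosis markers. In library 2, 9 members were higher in S-marked cells, against 0.5% of 7394 genes, and 0 lower, against 2.64%. In library 3, 27 were higher, against 1.1% of 7364 genes, and 0 lower, against 1.67%. The 9 of library 2, which were all among the 27, were Mcm3, Mcm4, Mcm5, Mcm6, Cdc6, Hells, Ung, Ccne1 and Ccne2. The count of library 2 depended on how S-marked cells were defined: with 1 S-phase marker UMI in place of 2, 1 member was higher and 7 lower, with a median log2 fold of -0.47, against 0.233% and 4.08% of genes. After thinning, which left 70 S-marked cells in library 2, 23 members were higher, against 14.9% of genes. In library 3, 8 were higher with 1 marker UMI, against 0.609% of genes.

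**Figure D4:**
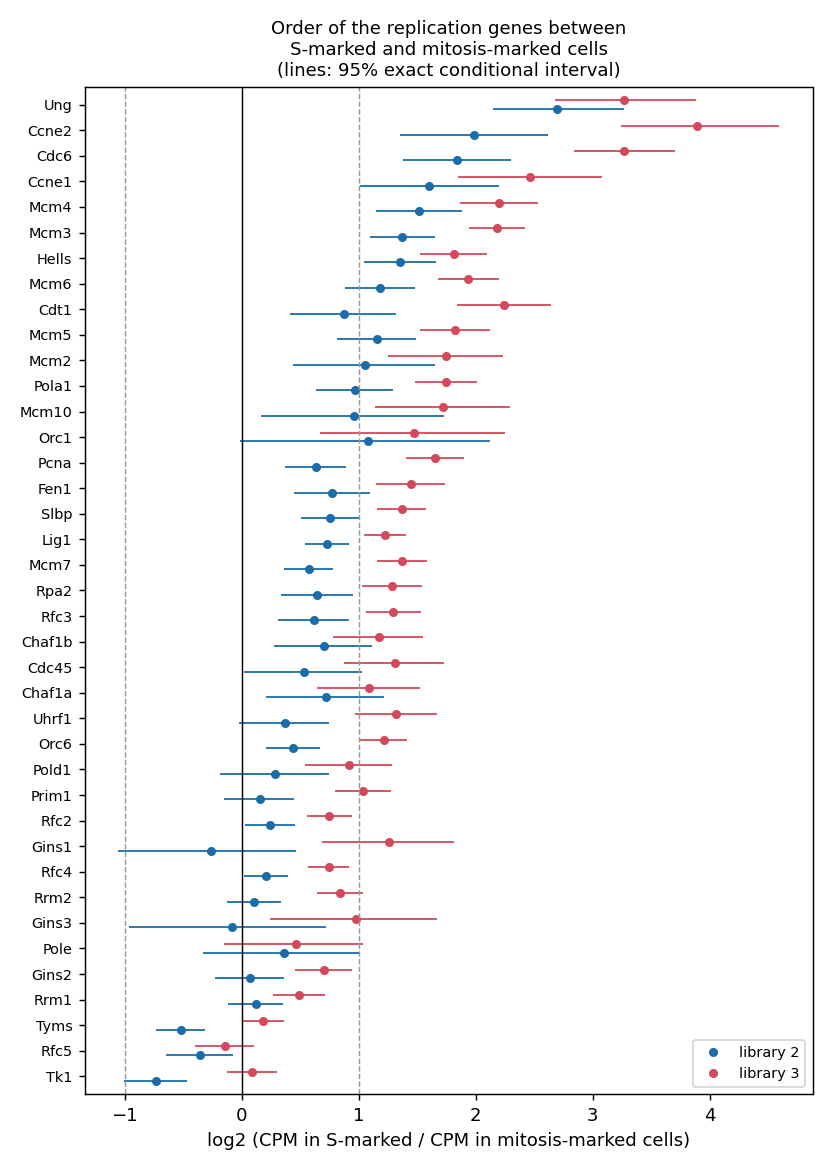
Log2 ratio of the level in S-marked to that in mitosis-marked cells for each of the 39 genes in libraries 2 (blue) and 3 (red), ordered by the mean of both, with 95% exact conditional intervals as lines and dashed lines at 2-fold. Ung, Ccne2, Cdc6 and Ccne1 lie at the top in both libraries, and Tk1, Rfc5 and Tyms at the bottom.

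Mcm3, Mcm4, Mcm5, Mcm6, Cdc6, Ccne1 and Ccne2, past the rule in both libraries, are known to act before or at the start of replication. Ung, a repair enzyme, and Hells, a chromatin remodeler, were past it too. Orc6, Cdc45 and Gins2, which also act at the start, differed less. Their log2 ratios were 0.44, 0.54 and 0.07 in library 2 and 1.21, 1.31 and 0.7 in library 3. Ung had the highest log2(CPM + 1) fold in library 2, 25.4 against 3.92 CPM in library 2 and 28.4 against 2.95 CPM in library 3, with log2 ratios of 2.69 (2.15 to 3.26) and 3.27 (2.68 to 3.88). Its level in mitosis-marked cells lay below that in neither cells, 3.92 against 6.73 CPM in library 2 and 2.95 against 5.76 CPM in library 3. Ccne2 had the highest fold in library 3, 14.8 against 3.74 CPM in library 2 and 30.8 against 2.07 CPM in library 3, with log2 ratios of 1.98 (1.35 to 2.62) and 3.89 (3.24 to 4.59). Ccne1 was at 14.5 against 4.76 CPM in library 2 and 19.7 against 3.59 CPM in library 3, with log2 ratios of 1.6 (1.01 to 2.2) and 2.46 (1.85 to 3.07). Both cyclin E genes were thus lower in mitosis-marked cells of both libraries. Cdc6 was at 25.7 against 7.19 CPM in library 2 and 53.7 against 5.58 CPM in library 3, with log2 ratios of 1.84 (1.38 to 2.3) and 3.27 (2.84 to 3.7). Mcm4 was at 36 against 12.6 CPM in library 2 and 58.8 against 12.8 CPM in library 3, with log2 ratios of 1.51 (1.15 to 1.88) and 2.2 (1.87 to 2.53). Mcm3 was at 57.6 against 22.2 CPM in library 2 and 111 against 24.4 CPM in library 3, with log2 ratios of 1.37 (1.09 to 1.65) and 2.18 (1.94 to 2.42). The ring subunits Mcm5 and Mcm6 followed. Mcm5 was at 37.5 against 16.8 CPM in library 2 and 64.3 against 18.2 CPM in library 3, with log2 ratios of 1.16 (0.82 to 1.49) and 1.82 (1.53 to 2.12). Mcm6 was at 48.1 against 21.2 CPM in library 2 and 86.8 against 22.7 CPM in library 3, with log2 ratios of 1.18 (0.88 to 1.48) and 1.93 (1.67 to 2.19). Hells was at 47.8 against 18.7 CPM in library 2 and 70.3 against 20 CPM in library 3, with log2 ratios of 1.36 (1.05 to 1.66) and 1.81 (1.53 to 2.1). Not every subunit of the ring behaved alike: Mcm7, past the rule in library 3 alone, was at 80.6 against 54.2 CPM in library 2 and 106 against 41 CPM in library 3, with log2 ratios of 0.57 (0.36 to 0.78) and 1.37 (1.15 to 1.59). Cdt1, also past it in library 3 alone, was at 19.5 against 10.7 CPM in library 2 and 41 against 8.69 CPM in library 3, with log2 ratios of 0.87 (0.41 to 1.32) and 2.24 (1.84 to 2.64).

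At the other end were genes whose log2 ratio in library 2 had an interval that included 0 or lay below it. In library 3 the intervals of Tyms, Rrm1 and Rrm2 lay above 0. Tk1 had the lowest fold in library 2, 40.2 against 66.6 CPM in library 2 and 86 against 80.7 CPM in library 3, with log2 ratios of -0.73 (-1.01 to -0.46) and 0.09 (-0.13 to 0.3). Rfc5 had the lowest in library 3, 37.5 against 48 CPM in library 2 and 61.2 against 67.6 CPM in library 3, with log2 ratios of -0.36 (-0.65 to -0.07) and -0.14 (-0.4 to 0.11). Tyms was at 67 against 96.1 CPM in library 2 and 127 against 112 CPM in library 3, with log2 ratios of -0.52 (-0.73 to -0.31) and 0.18 (0.00 to 0.36). In library 2 the intervals of these 3 lay below 0, and in library 3 those of Tk1 and Rfc5 included 0. Rrm1 was at 58.8 against 54 CPM in library 2 and 86 against 61.2 CPM in library 3, with log2 ratios of 0.12 (-0.12 to 0.36) and 0.49 (0.27 to 0.71). Rrm2 was at 60.8 against 56.5 CPM in library 2 and 112 against 62.3 CPM in library 3, with log2 ratios of 0.11 (-0.13 to 0.34) and 0.84 (0.64 to 1.04). The reductase and thymidylate enzymes thus had lower log2 ratios than the MCM subunits of the ring in both libraries. This order is for S-marked cells with 2 or more marker UMIs. By role, log2 ratios of summed levels were 1.78 (1.36 to 2.21) and 3.16 (2.73 to 3.6) for cyclin E, 0.8 (0.71 to 0.89) and 1.61 (1.53 to 1.68) for the helicase, and 0.82 (0.67 to 0.97) and 1.4 (1.27 to 1.54) for chromatin. They were 0.41 (0.34 to 0.49) and 1.0 (0.94 to 1.07) for the polymerases and -0.14 (-0.25 to -0.03) and 0.46 (0.36 to 0.56) for nucleotide supply. Nucleotide supply had the lowest log2 ratio of the 5 roles in both libraries. The median depths of the 2 classes were 10043 and 10291 UMIs in library 2, and 5037 and 4918 in library 3.

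Other genes of the same pathways came from lists that are not members. Their highest and lowest folds are by the mean of libraries 2 and 3, among genes at 10 CPM or more in either class of both. Of 41 other replication genes, 18 of library 2 and 24 of library 3 were higher in S-marked than in neither cells and 0 lower, with median log2 folds of 1.27 and 1.59. Asf1b, a histone chaperone, had the highest mean fold of these, 17.4 against 0.478 CPM in library 2 and 44.2 against 2.47 CPM in library 3, with log2 ratios of 5.19 (4.3 to 6.18) and 4.16 (3.74 to 4.59). The lowest mean folds were those of Pold4, a small subunit of polymerase delta, at 80.3 against 96.5 CPM in library 2 and 77 against 119.9 CPM in library 3, with log2 ratios of -0.27 (-0.45 to -0.08) and -0.64 (-0.85 to -0.43), and of Samhd1. The level of Samhd1 was 29.2 against 26.1 CPM in library 2 and 44.6 against 55 CPM in library 3, with log2 ratios of 0.16 (-0.16 to 0.47) and -0.3 (-0.59 to -0.03). Samhd1 breaks down the nucleotides that the reductase makes. In mitosis-marked against unmarked cells, 13 and 9 of the 41 were higher and 0 lower. Dbf4, the activator of the replication kinase Cdc7, was at 61.7 against 12.3 CPM in library 2 and 70.2 against 16.6 CPM in library 3, with log2 ratios of 2.33 (2.15 to 2.5) and 2.08 (1.93 to 2.22). In S-marked against mitosis-marked cells, 0 of the 41 were higher and 1 was lower in library 2. In library 3, 5 were higher and 0 lower. The median log2 folds of the 41 were 0.10 and 0.50. Dbf4 had the lowest mean fold of the 41 in that comparison, 18 against 61.7 CPM in library 2 and 37.5 against 70.2 CPM in library 3, with log2 ratios of -1.77 (-2.18 to -1.4) and -0.9 (-1.23 to -0.6).

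Of 26 E2F and G1 control genes, 4 of library 2 and 6 of library 3 were higher in S-marked than in neither cells. E2f8, a repressive E2F, was at 11.5 against 0.294 CPM in library 2 and 18.9 against 0.603 CPM in library 3, with log2 ratios of 5.29 (4.17 to 6.6) and 4.97 (4.19 to 5.8). Ccna2, the S and G2 cyclin, was at 17.1 against 1.36 CPM in library 2 and 40.7 against 3.83 CPM in library 3, with log2 ratios of 3.65 (3.03 to 4.29) and 3.41 (3.02 to 3.79). Cdkn2b, the inhibitor p15 of the G1 kinases, had the lowest mean fold and was lower past the rule in library 3, 23.6 against 42.3 CPM in library 2 and 18.9 against 41.7 CPM in library 3, with log2 ratios of -0.84 (-1.19 to -0.51) and -1.14 (-1.58 to -0.72). E2f1, an activating E2F, had the highest mean fold of the control genes against mitosis-marked cells, 25.4 against 11.2 CPM in library 2 and 52.1 against 11.5 CPM in library 3, with log2 ratios of 1.18 (0.76 to 1.59) and 2.18 (1.83 to 2.53). Of 20 mitosis genes other than the 3 class genes, a list that also holds Ccna2, all 20 were higher in mitosis-marked than in unmarked cells of both libraries, and 19 were higher in S-marked than in neither cells. Their median log2 folds in S-marked against neither cells were 2.61 and 2.97, close to the 2.73 and 2.98 of the 39 members. Top2a, the topoisomerase that untangles chromosomes, was at 135 against 12.8 CPM in library 2 and 249 against 14.6 CPM in library 3, with log2 ratios of 3.39 (3.19 to 3.6) and 4.09 (3.91 to 4.26) in S-marked against neither cells.

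Retnla encodes a secreted resistin-like protein and is known in mice as a gene that interleukin 4 induces in several cell types. Here it was read as a transcript only and not as a label of treatment. Cells with Retnla at 1% or more of their UMIs are called Retnla-high (2310 in library 2 and 7595 in library 3), and cells under 0.5% Retnla-low (2355 and 6542). Of the 39 members, 0 were past the 2-fold rule in either direction in either library. Among all genes, 1.14% were higher and 2.29% lower in Retnla-high cells of library 2, and 1.84% higher and 2.47% lower in library 3. The smaller differences in CPM ran in opposite directions. In library 2, the members summed to 488 (479 to 498) CPM in Retnla-high and 590.1 (579 to 602) CPM in Retnla-low cells, a log2 ratio of -0.27 (-0.31 to -0.23), and 31 of 39 folds were below 0. In library 3, the sums were 739 (729.7 to 749) and 603 (593 to 613) CPM, a log2 ratio of 0.30 (0.26 to 0.33), and 38 of 39 folds were above 0. A difference between the libraries was not tested. The median log2 fold of the members was -0.24 and 0.33, beside -0.07 and -0.06 over all genes, of which 60.7% lay below 0 in library 2 and 41.4% above 0 in library 3. Retnla-high cells of library 2 had a median of 9319 UMIs against 6895. As UMIs per cell, 28 of 39 folds of library 2 lay above 0. Their median was 0.098 beside 0.25 over all genes, so the members lay below all genes on both scales. In library 3 all 39 folds lay above 0 as UMIs per cell, where the median of all genes was 0.11. The opposite signs thus held in CPM and not as UMIs per cell.

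**Figure D5:**
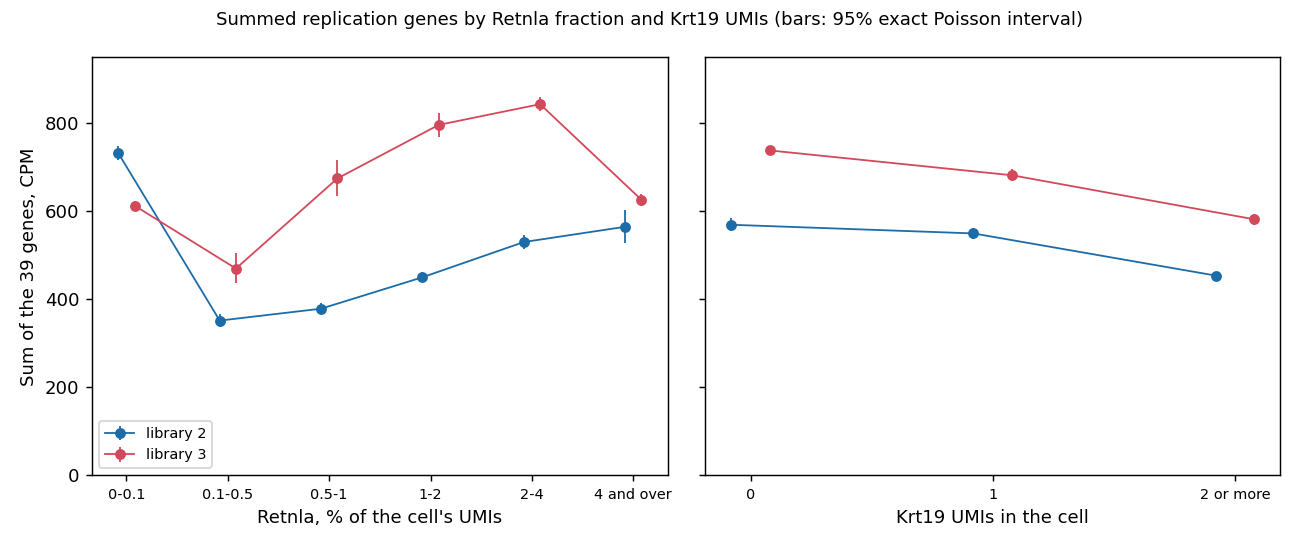
Summed level of the 39 genes (CPM) in cells grouped by the share of Retnla among their UMIs (left) and by Krt19 UMIs (right), in libraries 2 (blue) and 3 (red), with 95% exact Poisson intervals. Library 2 is highest, at 732 CPM, in cells with the least Retnla, and library 3 highest, at 843 CPM, in cells with 2 to 4%; both are lowest with 2 or more Krt19 UMIs, at 454 and 582 CPM.

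Across 6 bins of the Retnla share, the sums did not move in 1 direction. They were 732, 352, 379, 450.1, 530.1 and 565 CPM in library 2 from under 0.1% to 4% and over. In library 3 they were 613, 469.9, 675, 796, 843 and 626 CPM. Both libraries had their lowest sum in the bin from 0.1 to 0.5%, which held 788 and 524 cells. The share of mitosis-marked cells had the same low bin, at 13.8% and 11.1%. It was 17% in Retnla-high and 19.7% in Retnla-low cells of library 2, and 18.4% and 16.8% in library 3. S-marked cells made up 6.41% and 5.65% in library 2, and 4.46% (4.01 to 4.95) and 2.22% (1.87 to 2.60) in library 3. Among cells with no mitosis gene UMI the median member fold was -0.25 in library 2 and 0.47 in library 3.

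Log2 ratios of single members ran from -1.24 to 0.28 in library 2 and from -0.06 to 1.0 in library 3. The extremes of each library are given with Mcm3, Rrm1 and Cdc6, which were chosen after their values were seen. In library 2, Mcm3 was at 9.34 against 14.3 CPM, a log2 ratio of -0.61 (-0.89 to -0.34), and Rrm1 at 20.1 against 28.3 CPM, a log2 ratio of -0.5 (-0.68 to -0.31). Gins1 had the lowest fold there, 2.12 against 5.01 CPM, a log2 ratio of -1.24 (-1.78 to -0.71), and Ccne1 the highest, 3.75 against 3.08 CPM, a log2 ratio of 0.28 (-0.23 to 0.81). In library 3, Chaf1a had the highest fold, 7.45 against 3.86 CPM, a log2 ratio of 0.95 (0.58 to 1.33), and Cdc6 was at 7.28 against 3.99 CPM, a log2 ratio of 0.87 (0.5 to 1.24). Rrm1 had the lowest there, 28.3 against 29.6 CPM, a log2 ratio of -0.06 (-0.21 to 0.08). Mcm3 was at 20 against 13.8 CPM in library 3, a log2 ratio of 0.53 (0.33 to 0.73), the opposite side from library 2. The classes differed in other ways too. Retnla-low cells held more Krt19 (484 against 142 CPM and 524 against 156 CPM), more Malat1 (7565 against 5599 CPM and 6907 against 3968 CPM) and more of the 7 summed ATI markers (1506 against 762 CPM and 2709 against 1299 CPM). Cdkn2b was lower in Retnla-high cells of both libraries, 23.2 against 55.9 CPM in library 2 and 20.7 against 56.2 CPM in library 3, with log2 ratios of -1.27 (-1.43 to -1.11) and -1.44 (-1.59 to -1.3). The part of these in the member differences was not tested.

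Krt19, a keratin of simple epithelia, was used as a count per cell: 2 or more UMIs (2785 cells in library 2 and 3709 in library 3) against 0 (1353 and 6915). Again 0 of the 39 members were past the 2-fold rule in either library. Among all genes, 0.948% were higher and 0.0% lower with Krt19 in library 2, and 2.23% higher and 0.261% lower in library 3. Smaller differences ran 1 way in both libraries: 37 and 38 of 39 folds were below 0, against 53.2% and 46% of all genes. The medians of the members were -0.35 in each, beside -0.02 and 0.02 over all genes. The members summed to 454 (446 to 462) against 569 (555 to 584) CPM in library 2 and to 582 (569 to 594) against 738 (727 to 749) CPM in library 3, log2 ratios of -0.33 (-0.37 to -0.28) and -0.34 (-0.38 to -0.31). Cells with 2 or more Krt19 UMIs were deeper, with medians of 8518 against 7854 UMIs and 3481 against 3207 UMIs. Cells with 1 Krt19 UMI lay between, at 549.7 and 682 CPM. After thinning to 2000 UMIs before the classes were set, 10 and 9 members were past the rule as lower, with medians of -0.69 and -0.82. Of all genes, 5.27% and 2.54% were lower there, with medians of -0.16 and -0.04.

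By role, the log2 ratio of sums was -0.42 (-0.51 to -0.33) and -0.39 (-0.47 to -0.32) for the helicase and -0.54 (-0.97 to -0.11) and -0.6 (-1.02 to -0.19) for cyclin E. It was -0.21 (-0.28 to -0.14) and -0.33 (-0.39 to -0.27) for the polymerases. Rrm2, Pola1, Rpa2 and Lig1 were chosen as examples after their values were seen. Rrm2 was at 16.4 against 23.2 CPM in library 2 and 19.9 against 29.7 CPM in library 3, with log2 ratios of -0.5 (-0.73 to -0.27) and -0.58 (-0.78 to -0.38). Pola1 was at 8.38 against 13.2 CPM in library 2 and 11.2 against 15.7 CPM in library 3, with log2 ratios of -0.66 (-0.97 to -0.34) and -0.49 (-0.77 to -0.22). Rpa2 was at 10.1 against 14.2 CPM in library 2 and 13.5 against 21.2 CPM in library 3, with log2 ratios of -0.49 (-0.79 to -0.2) and -0.65 (-0.89 to -0.4). The intervals of Rrm2, Pola1 and Rpa2 lay below 0 in both libraries, but these genes were picked by their values and the intervals cover counting error only. Rrm1 had the highest fold in library 3 and was at 20.4 against 22.7 CPM in library 2 and 29.9 against 28 CPM in library 3, with log2 ratios of -0.15 (-0.37 to 0.07) and 0.1 (-0.08 to 0.27). Lig1 was at 27.8 against 29.2 CPM in library 2 and 33.9 against 37.4 CPM in library 3, with log2 ratios of -0.07 (-0.26 to 0.13) and -0.14 (-0.3 to 0.02). Mcm4 had the lowest fold in library 2, 5.42 against 9.55 CPM, a log2 ratio of -0.82 (-1.19 to -0.44), and Gins1 the highest, 3.51 against 2.91 CPM, a log2 ratio of 0.27 (-0.33 to 0.9). Cdc6 had the lowest in library 3, 3.56 against 7.08 CPM, a log2 ratio of -0.99 (-1.47 to -0.53).

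The mitosis genes did not share this direction: the median log2 fold of the 20 was 0.21 in library 2 and -0.01 in library 3 with Krt19. Mitosis-marked cells were 16.8% of cells with 2 or more Krt19 UMIs and 19.6% of cells with 0 in library 2, and 15.8% and 17% in library 3. S-marked cells were 5.75% (4.91 to 6.67) and 4.95% (3.86 to 6.25) in library 2 and 2.62% (2.13 to 3.18) and 4.09% (3.64 to 4.59) in library 3. Cdkn2b was higher with Krt19, 48.7 against 20.7 CPM in library 2 and 58.6 against 25 CPM in library 3, with log2 ratios of 1.24 (1.03 to 1.45) and 1.23 (1.08 to 1.38). Cdkn1a, the kinase inhibitor p21, was at 158 against 87.2 CPM in library 2 and 175 against 73.3 CPM in library 3, with log2 ratios of 0.86 (0.76 to 0.96) and 1.26 (1.17 to 1.34). Retnla was lower with Krt19, at 9127 against 15604 CPM and 12628 against 28313 CPM, and the summed ATI markers were higher, at 1196 against 849.6 CPM and 2398 against 1637 CPM. The part of these in the member differences was not tested.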

How the data were processed

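The deposited file holds UMI counts for all cells together, with genes as rows, and was made by the authors with bcl2fastq and Cell Ranger 6.0.1 per the submitters' processing notes. Counting settings are not given in the sources used here. Libraries were captured with 10x 3' chemistry and live cells were sorted, per the labels' protocols. The 6 labelled samples include 3 tag libraries, not used here. Ensembl identifiers were mapped to GENCODE mouse symbols (GRCm38). Cells with at least 1000 UMIs, 500 genes and at most 15% of UMIs from the 37 mitochondrial genes were kept, 36540 of 36584. No doublet caller was run; leaving out the 5% of cells with the most UMIs per library was an alternative.

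Counts were summed per library and class and scaled to UMIs per 1000000. Intervals are exact Poisson for levels, exact conditional for ratios and Clopper-Pearson for shares. They treat UMIs or cells as independent and give the precision that depth allows, within a library only. Fold medians cover genes with at least 1 CPM in a library. Thinning was seeded. Software was scipy 1.17.1, pandas 2.3.3, numpy 2.4.6 and matplotlib 3.10.9 under Python 3.11.15, and edgeR 4.0.16 under R 4.3.3 (TMM factors, as an alternative only). Tested on simulated counts of 52636 genes, the 2-fold rule found 100.0% of 200 genes changed 4-fold in each of S-marked against neither cells of library 2 and Retnla-high against Retnla-low cells of library 3, and called 0.0% of unchanged genes. The changed genes were drawn only from those at 20 CPM or more, and counts were drawn without clustering of UMIs in cells. This check therefore does not cover lower levels, where many members lie, smaller folds or spread between cells.

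The members and all lists were chosen with earlier results of these data known. Named are all members by level, members past the rule in libraries 2 and 3 alike, those with the largest and smallest fold, and, of the other lists, genes among the 2 highest and 2 lowest mean folds. Other members shown with class values were chosen after their values were seen. Some genes of the lists outside the members are counted in them but not reported by name here. Scaling, floor, pseudocount, thresholds, thinning and cell filters were varied.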

Additional observations from a re-analysis of the deposited data

Results flagged for a closer look

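The CPM sums of the members differed between Retnla-high and Retnla-low cells in opposite directions in the 2 libraries, so the result is given again. The log2 ratio of Retnla-high over Retnla-low was -0.273 in library 2 and 0.295 in library 3. As member UMIs per cell, Retnla-high cells held more in both libraries, 4.68 against 4.40 in library 2 and 2.87 against 2.05 in library 3. Each library is 1 sample whose day, age and treatment are unknown, and the difference between them was not tested. Mitosis-marked cells made up 17% of Retnla-high and 19.7% of Retnla-low cells in library 2, and 18.4% and 16.8% in library 3, and their part in the result was not tested. Among cells with no UMI of Plk1, Ccnb1 or Ccnb2 the median fold of the members was -0.25 in library 2 and 0.47 in library 3.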

How the results depend on the processing

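Of 226 values recomputed under an alternative for the counts, medians, sums and shares, 202 stayed within the limits set for no change and 24 moved. In mitosis-marked against unmarked cells, 17 members of library 2 were higher with a floor of 20 CPM. In library 3 of that comparison, 26 were higher as UMIs per cell and 10 with a pseudocount of 5 CPM, and 1 was lower with no floor. The median log2 fold of all genes there was 0.61 as UMIs per cell and 0.13 in CPM. Shares of all genes past the rule under these floor, per-cell and pseudocount settings are not given here. With 1 S-phase marker UMI in place of 2, 22 members of library 2 were higher in S-marked than in neither cells, against 0.919% of genes. Against mitosis-marked cells the same change left 1 higher and 7 lower in library 2 and 8 higher in library 3, turned the median of library 2 to -0.47, and turned Mcm3 to -0.083, Mcm5 to -0.29 and Mcm6 to -0.11. The cause was not tested. Thinning to 2000 UMIs gave 23 higher in library 2 for that comparison, and 10 and 9 members lower with Krt19 in libraries 2 and 3. As UMIs per cell, the median for Retnla in library 2 was 0.0984, beside 0.251 over all genes, a shift common to all genes. The summed levels were 394, 600.4 and 803 CPM without the surfactant protein genes and Retnla, and 487 and 623 CPM in libraries 2 and 3 without the 5% of cells with the most UMIs. The share of cells with 5 or more member UMIs became 1.98%, 9.67% and 13.7% at 3 or more UMIs and 0.0809%, 1.28% and 2.11% at 8 or more, and 2.76% and 3.64% in libraries 2 and 3 when thinned to 1500 UMIs. Of 4056 values of single members, 3 reversed, 132 fell below the 2-fold rule, 95 came past it and 3826 kept their side of it. Changes of sign alone were more frequent. With 1 S-phase marker UMI, members below 0 went from 5 to 33 in S-marked against mitosis-marked cells of library 2. As UMIs per cell, they went from 31 to 11 in Retnla-high against Retnla-low cells of library 2. TMM scaling moved the median of all genes by -0.19 and -0.18 in mitosis-marked cells and by -0.21 and -0.25 in S-marked against neither cells of libraries 2 and 3, and UMIs per cell moved it by between 0.13 and 0.57 in the comparisons with unmarked, neither, Retnla-low or Krt19-free cells. No paired analysis was possible because no library carries a replicate number and each group is 1 library. Library 1, with 167 mitosis-marked and 153 S-marked cells, allows only wide intervals for single members.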
